A study of Homo sapiens with 45 samples.

Results

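Apart from the transcription factors ZEB1 and ZEB2, many genes have been published as targets of the miR-200 family, the microRNA family to which miR-429 belongs. Values are given here for 10 of them in 3 human cancer cell lines that received miR-429, set beside the same cells that received another microRNA. The genes are WIPF1, WASF3, FHOD1, CFL2, PPM1F, MSN, PLCG1, SEC23A, QKI and KLF9, taken from published reports on the family and found on the arrays as probe sets annotated to 1 gene symbol. They have 34 probe sets of 54675 on the array, of which 31 had a group mean above the median of all values (4.89 on the log2 scale), used here as the level near background. With 1 probe set per gene, the brightest, all 10 were among the 15599 genes tested, of 19775 on the array.

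The lines were HEY and SKOV3, from ovarian cancers, and PC3, from a prostate cancer, all grown in the same serum-containing medium. Each group is titled as untransfected or as having received a synthetic microRNA precursor, namely miR-429, miR-205, miR-203a or the control precursor called miR-NC. There were 15 groups of 3 arrays, 45 arrays in all. Precursors were given at 33 nM with a lipid reagent and RNA was taken after 48 h. Such transfection can leave cells with far more of a microRNA than they normally make, and the levels reached are not given here. Nothing in the labels tells if a group's 3 arrays come from separate cultures, so its p-values reflect the spread between arrays and nothing more. In bulk RNA, a lower level per cell and fewer cells holding a transcript cannot be told apart.

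A microRNA guides Argonaute proteins to sites in messenger RNAs that pair with its seed, the bases near its 5′ end, and the bound transcripts are degraded or translated less. The miR-200 family falls into a pair of seed groups, and it is best known for keeping epithelial cells in their state by lowering ZEB1 and ZEB2. Most of the genes described here act elsewhere, on the actin filaments that shape and move cells, and others act in secretion, signalling, splicing and transcription.

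The mature sequences below, from RefSeq on GRCh38.p14, are shown to set out which seeds the transfected microRNAs carry, with bases 2 to 8 in capitals.
hsa-miR-429: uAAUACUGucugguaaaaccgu
hsa-miR-200b-3p: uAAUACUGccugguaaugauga
hsa-miR-200c-3p: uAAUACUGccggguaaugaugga
hsa-miR-200a-3p: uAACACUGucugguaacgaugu
hsa-miR-141-3p: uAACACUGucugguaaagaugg
hsa-miR-203a-3p: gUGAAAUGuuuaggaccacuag
hsa-miR-205-5p: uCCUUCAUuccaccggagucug

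miR-429 has the same seed as miR-200b and miR-200c. The seed of miR-200a and miR-141 differs from it by 1 base, U4C, counted from the 5′ end of the microRNA. The seeds of miR-203a and miR-205 differ from that of miR-429 at 4 and 5 of the 7 positions, so these transfections serve as microRNA controls that do not share it. Mature miR-429 lies at chr1:1169055-1169076 on the plus strand, miR-205-5p at chr1:209432166-209432187 and miR-203a-3p at chr14:104117469-104117490, both also on the plus strand. Sites for these seeds in the transcripts of the 10 genes were not analysed here.

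On the transfected arrays ERBB2, which is amplified in SKOV3, had group means of 11.3 to 11.7 in SKOV3 and of no more than 7.77 in the other lines. PAX8 was at 10.4 to 11.6 in HEY as well as in SKOV3 and at 5.70 to 6.77 in PC3, and HOXB13, a prostate gene, ran from 5.36 to 8.19 in PC3 and from 6.24 to 6.70 in SKOV3, so it did not mark PC3 there in every group. The arrays titled untransfected went against their titles, with ERBB2 at 12.3 on those titled HEY and 7.60 on those titled SKOV3, and HOXB13 at 11.7 on those titled SKOV3 and 4.36 on those titled PC3. They enter no tested difference below, though they count in the fit's estimate of spread, the background level and the choice of probe sets. The probe set for the 5′ end of GAPDH, a control on which a low value goes with shortened RNA or amplification product, was at 13.7 in all 4 transfected SKOV3 groups. In HEY it was at 8.37 with miR-NC, 8.95 with miR-203a, 12.3 with miR-205 and 6.25 with miR-429, and in PC3 at 5.04, 9.99, 8.70 and 4.54 in the same order, so the groups of HEY and PC3 differed in this measure and those of SKOV3 did not by more than 0.048.

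Most of the 10 genes were lower in cells that received miR-429. Against miR-NC, 8 fell in HEY, where 35.7% of all genes tested fell, 8 in SKOV3, where 7.18% fell, and 6 in PC3, where 29.7% fell. A gene is counted as fallen or risen when the limma test, adjusted by Benjamini-Hochberg over the 15599 genes, gave a p under 0.05. WIPF1, SEC23A, PPM1F, CFL2 and PLCG1 fell in all 3 lines, as 2.02% of all genes tested did. WIPF1 fell the furthest of the 10 in each line, to between 4.58-fold and 5.92-fold below miR-NC, counting the 1 probe set that stands for each gene. Other probe sets of CFL2, QKI, PPM1F, SEC23A and KLF9 fell further than WIPF1 in HEY, SKOV3 or both, and with probe sets averaged WIPF1 was not the furthest, as given below. On the probe sets used, PPM1F in HEY and SEC23A in SKOV3 came within 1 SE of it (0.20 log2 units). FHOD1 rose in HEY, where 21% of all genes rose, and none of the 10 rose in SKOV3 (14.9% of all genes) or PC3 (16.3%), except that with the median of the tested genes subtracted from each array FHOD1 and QKI were called higher in PC3, by 0.44 and 0.30 log2 units, as both were with array medians subtracted and FHOD1 was with quantile normalization.

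The median difference of the 10 genes between miR-429 and miR-NC was -0.77 log2 units in HEY, -0.80 in SKOV3 and -0.38 in PC3. The medians over all genes tested were -0.15, -0.014 and -0.13. In HEY and PC3 the median gene was lower with miR-429 too, and the count of the 10 genes stands against a high background there, while in SKOV3 few genes fell.

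Against the other microRNAs the counts were similar. In SKOV3, 9 of the 10 genes were lower with miR-429 than with miR-203a, where 7.08% of all genes were, and 9 were lower than with miR-205, where 9.33% were. In PC3, 8 were lower than with miR-203a (43.3% of all genes) and 9 than with miR-205 (42.6%), KLF9 among them in both although its PC3 levels all lay under the background level. In HEY, 7 were lower than with miR-203a (34.6%), with FHOD1 higher (19.8% of all genes higher). The 5 of 10 in HEY that were lower than with miR-205 stood close to the 41.3% of all genes that were, and WASF3 was higher there (22.1% higher). The comparisons within a line share the miR-429 arrays, so they are not independent of each other. The 5′ GAPDH probe set differed between the same groups by -2.11, -2.69 and -6.03 log2 units in HEY (against miR-NC, miR-203a and miR-205), by -0.50, -5.45 and -4.16 in PC3 and by -0.038, -0.034 and -0.048 in SKOV3. Its part in the HEY and PC3 counts was not tested.

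How the arrays are scaled moved the PC3 counts most. With the median of the tested genes subtracted from each array, the genes lower with miR-429 than with miR-NC, miR-203a and miR-205 numbered 4, 5 and 5 in PC3, beside 18.9%, 24.7% and 23.2% of all genes. In SKOV3 they numbered 8, 9 and 9, beside 11.3%, 9.76% and 9.21%, and in HEY 6, 7 and 5, beside 27.3%, 26.7% and 27.5%. On that scale the SKOV3 counts were those given above.

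**Figure D1:**
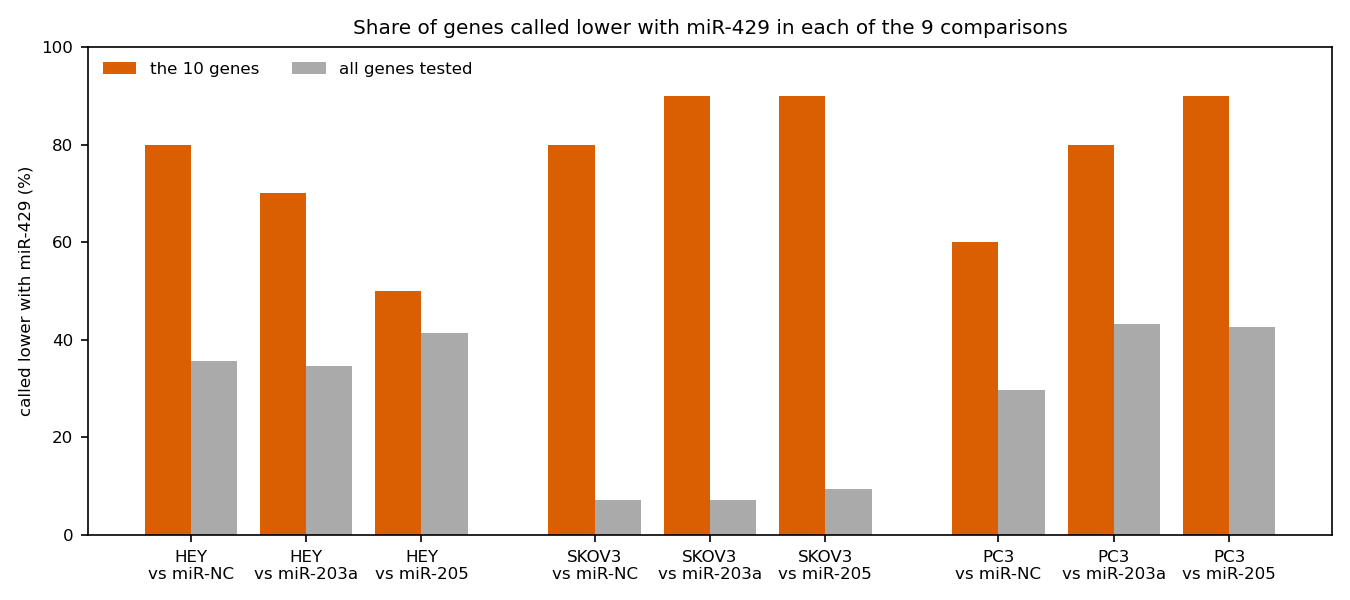
The percentage of genes that were lower with miR-429 (limma, adjusted p under 0.05) is drawn for the 10 genes (orange) and for all 15599 genes tested (grey), in each of the 9 comparisons. In SKOV3 8 or 9 of the 10 genes were lower beside 7.08% to 9.33% of all genes, whereas in HEY against miR-205 the share of the 10 genes was near that of all genes (41.3%).

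WIPF1, PPM1F, CFL2 and PLCG1 were lower with miR-429 in all 9 comparisons, which 0.308% of all genes were, although with array medians or tested-gene medians subtracted PLCG1 lost its call in all 3 PC3 comparisons and CFL2 in those with miR-NC and miR-205. With tested-gene medians subtracted PLCG1 in PC3 was at -0.19 against miR-203a (adjusted p = 0.24) and -0.0021 against miR-205 (0.99), and CFL2 at -0.16 against miR-205 (0.29). WIPF1 and PPM1F kept all 9 calls in every fit run. Within a line, 4 of the 10 genes were lower than with miR-NC, miR-203a and miR-205 alike in HEY (14.3% of all genes), 8 in SKOV3 (1.76%) and 6 in PC3 (20.1%). In HEY these were WIPF1, CFL2, PPM1F and PLCG1. MSN and SEC23A joined them in PC3, and in SKOV3 FHOD1 and QKI did so as well. Averaged over the lines and over both other microRNAs, all 10 were lower with miR-429, by 0.26 (QKI) to 1.96 (WIPF1) log2 units, in a comparison where 47.1% of all genes were lower. With quantile normalization 9 were (38.3% of all genes), and with array medians or tested-gene medians subtracted 8 were (30.4% and 26.2%).

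**Figure D2:**
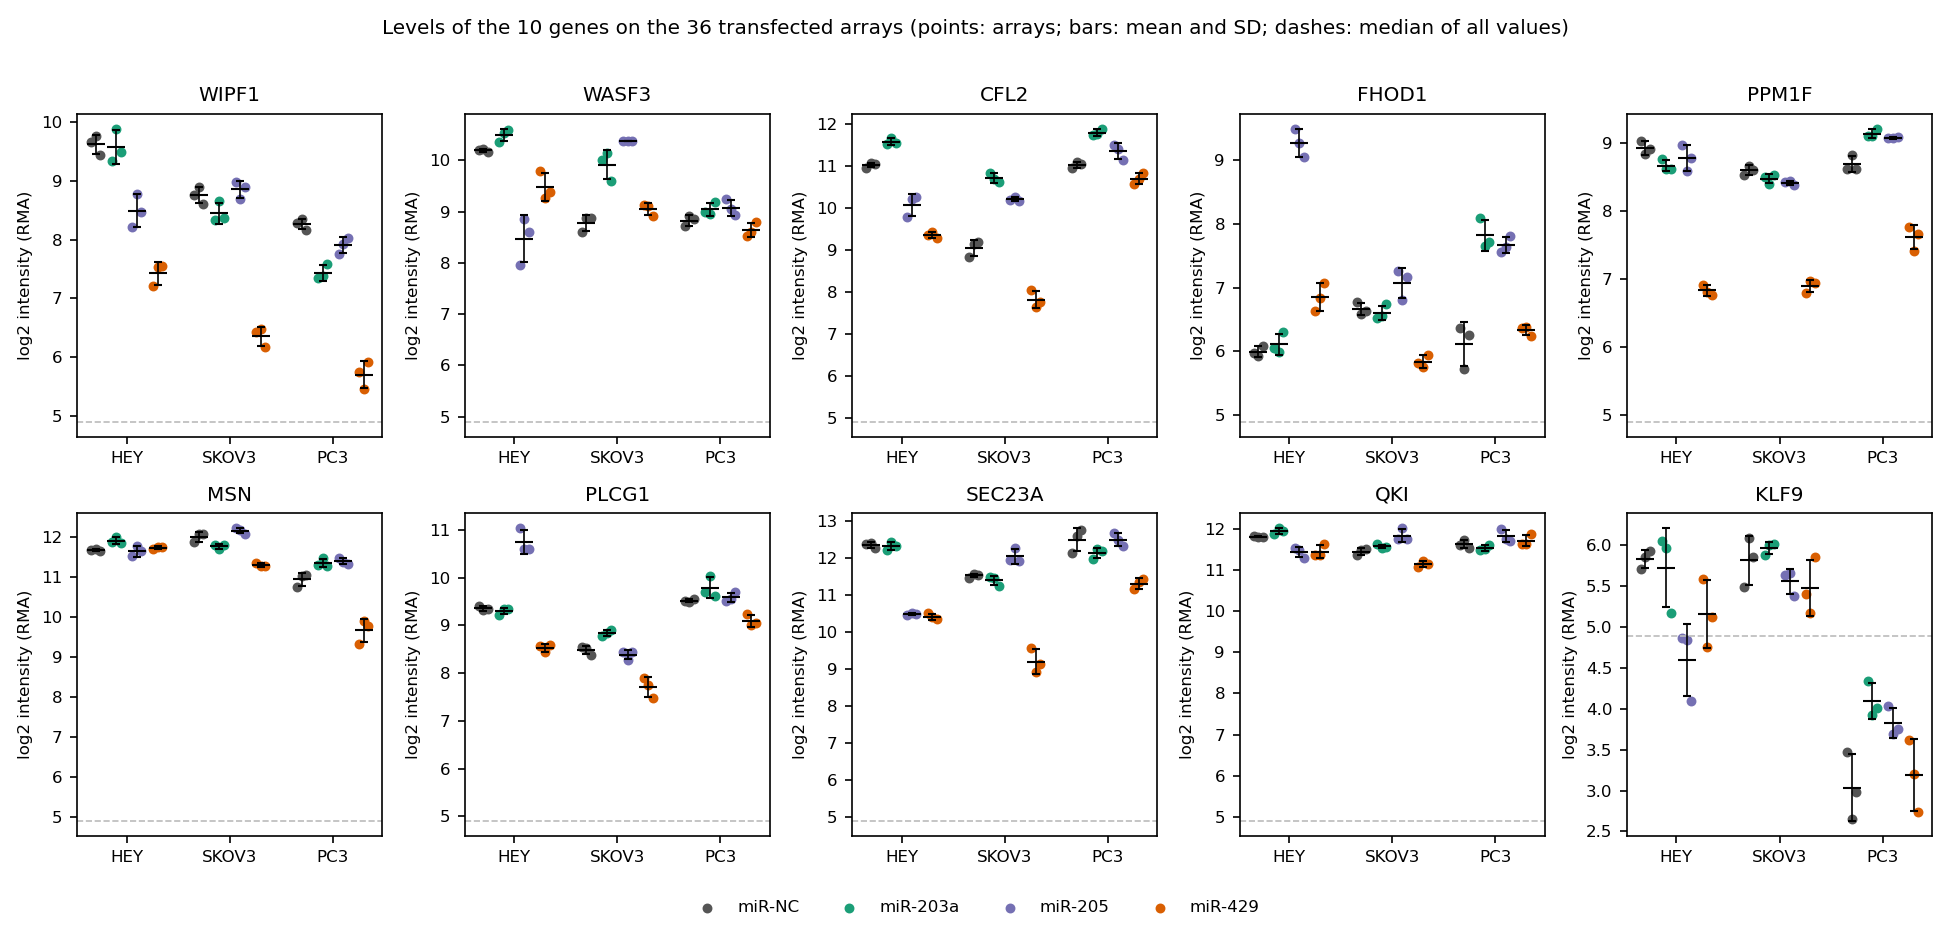
Each panel is 1 gene, with log2 intensity after RMA on the vertical axis, every transfected array as a point coloured by its microRNA, and the mean and SD of each group of 3 in black. The miR-429 points (orange) of WIPF1 and PPM1F lie below all other points of their line in HEY, SKOV3 and PC3, those of FHOD1 do so in SKOV3 alone, and KLF9 in PC3 lies under the dashed line at the median of all values.

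The actin regulators come first. WIPF1 encodes WIP, a partner protein that stabilises WASP proteins and with them the branching of actin filaments. In HEY its log2 intensity was 9.67, 9.76 and 9.45 with miR-NC and 7.20, 7.53 and 7.55 with miR-429. In SKOV3 it was 8.76, 8.89 and 8.62 against 6.43, 6.47 and 6.17, and in PC3 8.29, 8.35 and 8.17 against 5.74, 5.45 and 5.91. The groups did not overlap in any line, and every miR-429 array was lower by more than 1 unit than every miR-NC array of its line.

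The differences for WIPF1 were -2.20 ± 0.20 (SE, 3 arrays a group, adjusted p = 1.1e-11), -2.40 ± 0.20 (9.2e-12) and -2.57 ± 0.20 (3.8e-12) in HEY, SKOV3 and PC3, equal to 4.58-fold, 5.28-fold and 5.92-fold less. In SKOV3 0.038% of all genes tested fell further, in PC3 0.071% and in HEY 1.53%. Against miR-203a the differences were -2.15, -2.09 and -1.73 and against miR-205 -1.06, -2.50 and -2.20, all with adjusted p of 1.8e-05 or less. These values are those of probe set 202664_at. The other 3 probe sets for WIPF1 are dim, with highest group means of 5.93 to 6.52, and their differences from miR-NC ran from -0.66 to 0.58, so a mean over the 4 probe sets gave -0.43, -0.81 and -0.73 in HEY, SKOV3 and PC3.

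WASF3, or WAVE3, activates the ARP2/3 complex that starts new actin branches. In HEY it stood at 10.20, 10.22 and 10.16 with miR-NC and at 9.79, 9.26 and 9.38 with miR-429, a fall of 0.72 log2 units (SE 0.19, adjusted p = 0.0012) between groups that did not overlap. In SKOV3 it stood at 8.60, 8.87 and 8.87 with miR-NC and at 9.13, 9.11 and 8.92 with miR-429, a difference of 0.27 ± 0.19 that did not pass the test (adjusted p = 0.32), and in PC3 the difference was -0.18 ± 0.19 (0.44). WASF3 was lower in SKOV3 with miR-429 than with miR-203a (by 0.86) and miR-205 (by 1.32) while both of those groups were themselves above miR-NC, at means of 9.92 and 10.37 beside 8.78. In HEY it was lower still with miR-205 (7.96, 8.86 and 8.60) than with miR-429, by 1.01 log2 units.

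In PC3, WASF3 was lower with miR-429 than with miR-205 by 0.43 ± 0.19 (adjusted p = 0.039). That call was lost without replicate 1 of miR-205 (adjusted p = 0.14), replicate 2 of miR-205 (0.062), replicate 1 of miR-429 (0.12) or replicate 2 of miR-429 (0.083), and after subtracting the median of the tested genes from each array the difference was 0.055.

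FHOD1 is a formin, a protein that binds actin filaments and helps build stress fibres. It went opposite ways in the lines. In HEY its values were 5.98, 5.93 and 6.09 with miR-NC and 6.63, 6.85 and 7.08 with miR-429, so that all 3 arrays were higher, by 0.85 ± 0.17 on average (adjusted p = 4e-05). In SKOV3 they were 6.78, 6.60 and 6.63 against 5.81, 5.75 and 5.95, a fall of 0.83 ± 0.17 (adjusted p = 0.00025). In PC3 the groups overlapped at 6.36, 5.73 and 6.27 against 6.37, 6.39 and 6.24.

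In HEY with miR-205, and in PC3 with both other microRNAs, FHOD1 was further from miR-NC than it was with miR-429. It was at 9.50, 9.27 and 9.05 in HEY with miR-205, which is 3.27 log2 units above miR-NC (adjusted p = 2.2e-18). In PC3 it was above miR-NC by 1.71 with miR-203a and by 1.55 with miR-205. The lower values with miR-429 against these groups, by 2.42 in HEY and by 1.49 and 1.34 in PC3, stand beside these rises. The 5′ GAPDH probe set was above its miR-NC level in the same 3 groups, by 3.92 in HEY with miR-205, 4.95 in PC3 with miR-203a and 3.66 in PC3 with miR-205, and its part in the FHOD1 differences was not tested.

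CFL2 is the muscle-type cofilin, which severs and disassembles actin filaments. With miR-NC it stood at 10.96, 11.06 and 11.04 in HEY, and with miR-429 at 9.36, 9.43 and 9.28. In SKOV3 the values were 8.83, 9.13 and 9.18 against 8.05, 7.63 and 7.76, and in PC3 10.95, 11.09 and 11.04 against 10.57, 10.69 and 10.82. The groups were apart in each line, but in PC3 by a narrow gap. CFL2 fell by 1.66 ± 0.13 in HEY (adjusted p = 3.2e-13), by 1.23 ± 0.13 in SKOV3 (2.4e-09) and by 0.33 ± 0.13 in PC3 (0.034).

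The PC3 fall of CFL2 against miR-NC is the weakest of these. It lost its call without replicate 2 or 3 of miR-NC (adjusted p = 0.097 and 0.072) and without replicate 1 or 2 of miR-429 (0.13 and 0.069), and it was 0.077 after subtracting each array's median. The other probe sets for CFL2 fell further, 224663_s_at by 2.34, 2.99 and 1.10 in HEY, SKOV3 and PC3 and 233496_s_at by 2.24, 2.65 and 1.45. On 224663_s_at the PC3 arrays read 11.35, 11.23 and 11.31 with miR-NC and 10.12, 10.28 and 10.18 with miR-429, with no overlap.

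Averaged over the lines CFL2 was the gene of the 10 that differed most between miR-429 and miR-203a (-2.07, with WIPF1 next at -1.99). With miR-203a it rose above miR-NC in all 3 lines, by 0.56 ± 0.13 in HEY, 1.66 ± 0.13 in SKOV3 and 0.77 ± 0.13 in PC3, to 10.83, 10.69 and 10.61 on the SKOV3 arrays. miR-429 was thus below miR-203a by 2.22, 2.90 and 1.10 log2 units in HEY, SKOV3 and PC3.

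MSN encodes moesin, which ties actin filaments to the cell membrane. It showed almost no change in HEY, at 11.68, 11.70 and 11.65 with miR-NC and 11.70, 11.75 and 11.76 with miR-429 (0.063 ± 0.14, adjusted p = 0.72). In SKOV3 it went from 11.87, 12.08 and 12.09 to 11.35, 11.29 and 11.27, a fall of 0.71 ± 0.14 (adjusted p = 0.00016), and in PC3 from 10.75, 11.02 and 11.05 to 9.34, 9.90 and 9.77, a fall of 1.27 ± 0.14 (5.1e-09). In both of these lines the arrays of the groups did not overlap. The second probe set for MSN, 233749_at, is dim, with a highest group mean of 5.94, and it differed by -1.86 in HEY, so that the mean of both gave -0.90 there and a call of lower.

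PPM1F is a phosphatase, also called POPX2, that acts on the PAK and CaM kinases, which control actin and contraction. In HEY it was at 9.04, 8.84 and 8.91 with miR-NC and 6.92, 6.82 and 6.76 with miR-429, in SKOV3 at 8.53, 8.67 and 8.61 against 6.80, 6.97 and 6.94, and in PC3 at 8.63, 8.83 and 8.63 against 7.77, 7.42 and 7.67. No miR-429 array reached the lowest array of any other transfected group of its line.

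PPM1F fell by 2.10 ± 0.12 in HEY (adjusted p = 3.5e-16), by 1.70 ± 0.12 in SKOV3 (4.8e-13) and by 1.07 ± 0.12 in PC3 (1.8e-08) against miR-NC. Its differences from miR-203a and miR-205 lay between -1.46 and -1.96 in all 3 lines. Of its 4 probe sets, 203063_at fell by 2.51, 2.08 and 0.97 in HEY, SKOV3 and PC3. The dim probe set 1555091_at, with a highest group mean of 4.92, was higher in HEY (0.73) and PC3 (0.62), and 1555470_a_at fell in SKOV3 and PC3 (by 0.66 and 0.80) and differed by 0.36 in HEY (adjusted p = 0.14).

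PLCG1, phospholipase C gamma 1, relays growth factor receptor signals by splitting a membrane lipid. With miR-NC it was at 9.41, 9.32 and 9.35 in HEY, 8.55, 8.53 and 8.39 in SKOV3 and 9.52, 9.49 and 9.55 in PC3. With miR-429 it was at 8.57, 8.44 and 8.58, at 7.90, 7.76 and 7.48, and at 9.23, 9.01 and 9.04. Each miR-429 array was below each miR-NC array of its line. The falls were 0.83 ± 0.15 in HEY (adjusted p = 1.8e-05), 0.78 ± 0.15 in SKOV3 (0.00019) and 0.42 ± 0.15 in PC3 (0.023).

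The PC3 fall of PLCG1 lost its call without replicate 3 of miR-NC (adjusted p = 0.057) or replicate 2 or 3 of miR-429 (0.076 and 0.066), and was 0.20 (adjusted p = 0.26) below miR-NC once the tested genes' median was subtracted. The second probe set, 216551_x_at, fell by 0.90, 0.61 and 0.49 in HEY, SKOV3 and PC3. In HEY with miR-205 PLCG1 was higher than with miR-NC, at 11.05, 10.61 and 10.61, a rise of 1.40 ± 0.15.

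SEC23A is a subunit of the inner COPII coat, which forms vesicles that leave the endoplasmic reticulum. Its values with miR-NC were 12.38, 12.43 and 12.28 in HEY, 11.48, 11.57 and 11.56 in SKOV3 and 12.15, 12.61 and 12.76 in PC3. With miR-429 they were 10.51, 10.42 and 10.35, then 9.57, 8.93 and 9.13, then 11.16, 11.36 and 11.43. The groups did not overlap in any line, with the widest gaps in HEY and SKOV3.

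SEC23A fell by 1.93 ± 0.15 in HEY (adjusted p = 3.8e-13), 2.33 ± 0.15 in SKOV3 (2.3e-14) and 1.19 ± 0.15 in PC3 (1.1e-07). In SKOV3 0.045% of all genes tested fell further. Its second probe set, 204344_s_at, fell too, with differences of -1.89, -2.85 and -1.31. SEC23A was lower in 8 of the 9 comparisons, and the exception was HEY against miR-205, with a difference of -0.067 ± 0.15 (adjusted p = 0.72). In PC3 against miR-203a its difference of -0.83 became -0.33 (adjusted p = 0.074) with tested-gene medians subtracted. In HEY miR-205 itself had SEC23A at 10.48, 10.51 and 10.49, which is 1.87 ± 0.15 below miR-NC (adjusted p = 3e-13). On the 9 arrays titled untransfected SEC23A lay between 10.28 and 10.87, under every miR-NC array.

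QKI encodes quaking, an RNA-binding protein that controls alternative splicing and the making of circular RNAs. The gene has 10 probe sets here, and they did not move alike. The brightest on average, 212265_at, which stands for the gene in the counts above, fell by 0.36 ± 0.10 in HEY (adjusted p = 0.0032) and by 0.30 ± 0.10 in SKOV3 (0.033) and differed by 0.083 ± 0.10 in PC3 (0.54). The HEY call was lost with tested-gene medians subtracted (-0.18, adjusted p = 0.21). The SKOV3 call was lost without replicate 2 or 3 of miR-NC (adjusted p = 0.096 and 0.11) or replicate 1 or 3 of miR-429 (0.13 and 0.072).

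On probe set 212636_at QKI read 11.41, 11.43 and 11.31 in HEY with miR-NC and 7.36, 7.15 and 7.54 with miR-429. In SKOV3 it read 9.83, 10.22 and 10.17 against 6.54, 6.42 and 6.61, and in PC3 9.04, 9.16 and 9.09 against 8.24, 8.35 and 8.77. All 3 lines were lower with no overlap, by 4.03, 3.55 and 0.64 log2 units, which in HEY and SKOV3 was the widest fall of any of the 34 probe sets. Probe set 236154_at fell by 2.80, 2.01 and 1.64 in HEY, SKOV3 and PC3, although in SKOV3 its miR-NC level, 4.89, was already near background.

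Of the remaining QKI probe sets, 1555154_a_at and 214543_x_at fell in SKOV3 by 1.82 and 1.83 and differed in HEY by 0.27 and 0.55. A mean over the 10 probe sets gave -1.16 in HEY, -1.45 in SKOV3 and -0.47 in PC3 against miR-NC, and in PC3 -1.20 against miR-203a, where 212265_at alone gave 0.18. Which transcripts of QKI each probe set detects was not analysed here.

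KLF9 is a Krüppel-like transcription factor that answers to steroid hormones. The probe set that stands for it, 203542_s_at, was dim, and in PC3 every transfected array was below the median of all values, at 2.65 to 4.34. In HEY it was at 5.71, 5.86 and 5.93 with miR-NC and 5.58, 4.76 and 5.12 with miR-429, a fall of 0.68 ± 0.28 (adjusted p = 0.040). That call was lost without replicate 1, 2 or 3 of miR-NC (adjusted p = 0.051, 0.081 and 0.098) and without replicate 2 or 3 of miR-429 (0.20 and 0.079). In SKOV3 the arrays overlapped, at 5.49, 6.08 and 5.86 against 5.41, 5.17 and 5.85.

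In PC3 KLF9 was lower with miR-429 than with miR-203a by 0.90 ± 0.28 (adjusted p = 0.0052) and than with miR-205 by 0.63 ± 0.28 (0.048). The first was not called without replicate 3 of miR-429 (adjusted p = 0.053), and the second lost its call in 5 of the 6 fits that left out an array of either group, with adjusted p of 0.057 to 0.26 there (replicate 1, 2 or 3 of miR-205, replicate 2 or 3 of miR-429). As all 4 PC3 group means, 3.03 to 4.09, are below the background level, their sizes are those of dim signals.

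Probe set 203543_s_at of KLF9 read 6.62, 6.64 and 6.69 in HEY with miR-NC and 3.40 to 4.62 with miR-429, a wider fall of 2.44 ± 0.33 (adjusted p = 7.5e-08) to a level under background. It differed by 0.78 in SKOV3 and -0.68 in PC3 (adjusted p = 0.12 and 0.086). The other 3 probe sets of KLF9 had no group mean above background. A mean over the 2 that did gave -1.56 in HEY against miR-NC and -1.59 against miR-203a, both called lower.

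**Figure D3:**
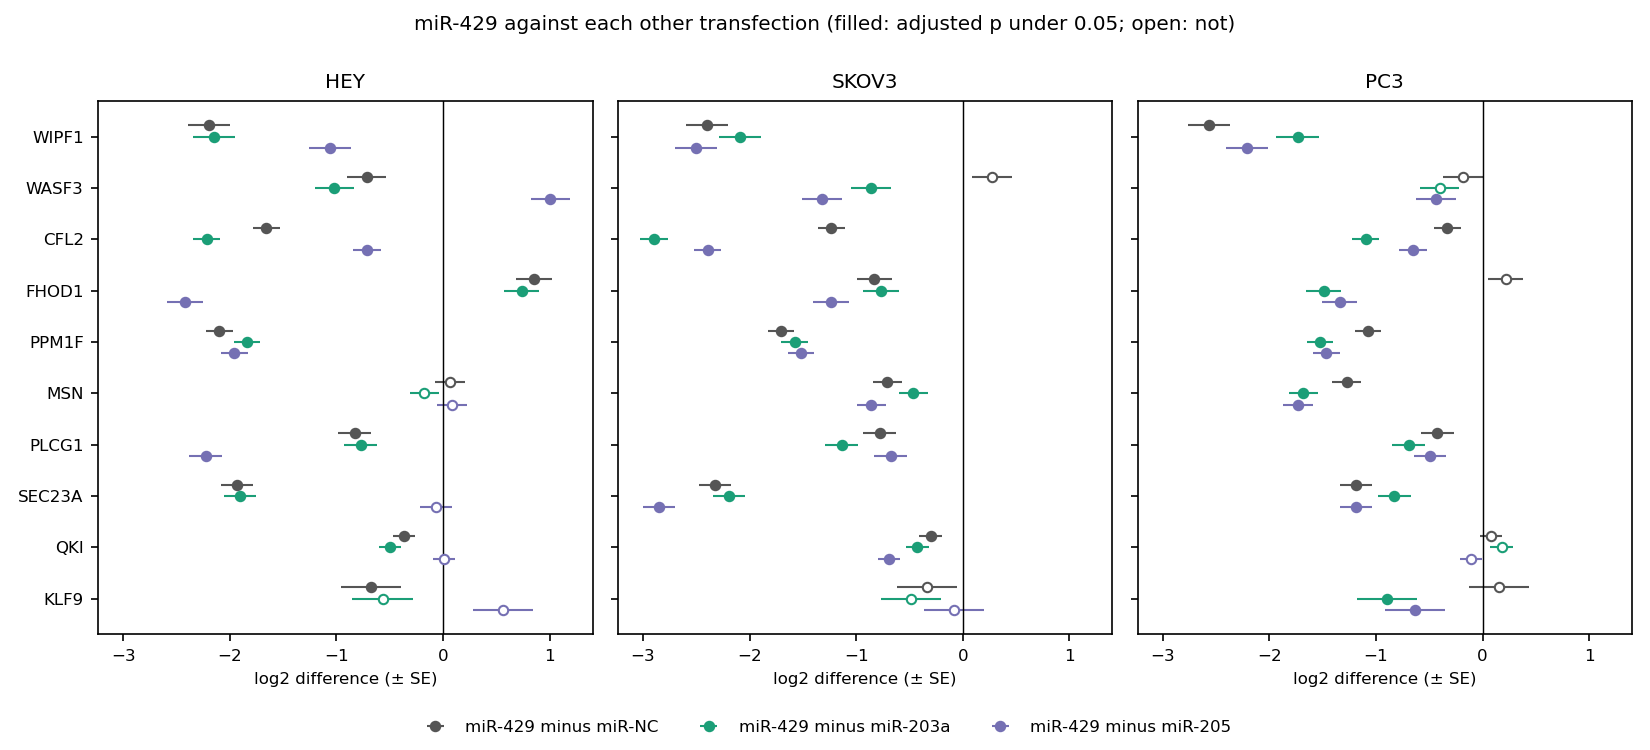
Log2 differences of miR-429 from miR-NC (grey), miR-203a (green) and miR-205 (violet) are drawn with their SE for each gene in each line, filled where the adjusted p was under 0.05. WIPF1, PPM1F, CFL2 and PLCG1 are filled and left of 0 throughout, FHOD1 is right of 0 against miR-NC in HEY (0.85) and left of it in SKOV3 (-0.83), and SEC23A stands near 0 in HEY against miR-205 (-0.067).

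A test that does not rely on limma's estimate of the spread was run on the comparison with the other microRNAs. In it the labels of 2 microRNAs were permuted within each line, in all 8000 ways, and the mean difference over the 3 lines was taken, two-sided, with Benjamini-Hochberg adjustment over the 15599 genes. Against miR-203a 8 of the 10 genes were lower by this test, beside 19.9% of all genes, up to CFL2 at -2.07 (adjusted exact permutation p = 0.0033, lower in 3 of 3 lines). QKI (-0.25, adjusted exact permutation p = 0.067, lower in 2 of 3 lines) and FHOD1 (-0.51, adjusted exact permutation p = 0.15, lower in 2 of 3 lines) did not pass. Against miR-205 7 were lower, beside 34.2% of all genes, and QKI (-0.26, adjusted exact permutation p = 0.053), WASF3 (-0.25, adjusted exact permutation p = 0.46) and KLF9 (-0.051, adjusted exact permutation p = 0.84) did not pass. The smallest p this test can give before adjustment is 0.00025, and WIPF1, CFL2, PPM1F and PLCG1 reached it against both microRNAs. WASF3, MSN and SEC23A also reached it against miR-203a, and FHOD1 against miR-205. Taking each microRNA alone and either direction, 7.64% of all genes reached it against miR-203a and 14% against miR-205.

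Counting every probe set in place of 1 per gene, 20 of the 31 probe sets above background were lower with miR-429 than with miR-NC in HEY, 22 in SKOV3 and 17 in PC3. Of all such probe sets on the array 32.8%, 5.17% and 31.5% were. Probe sets of a gene share its transcripts and are not replicates of each other.

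**Figure D4:**
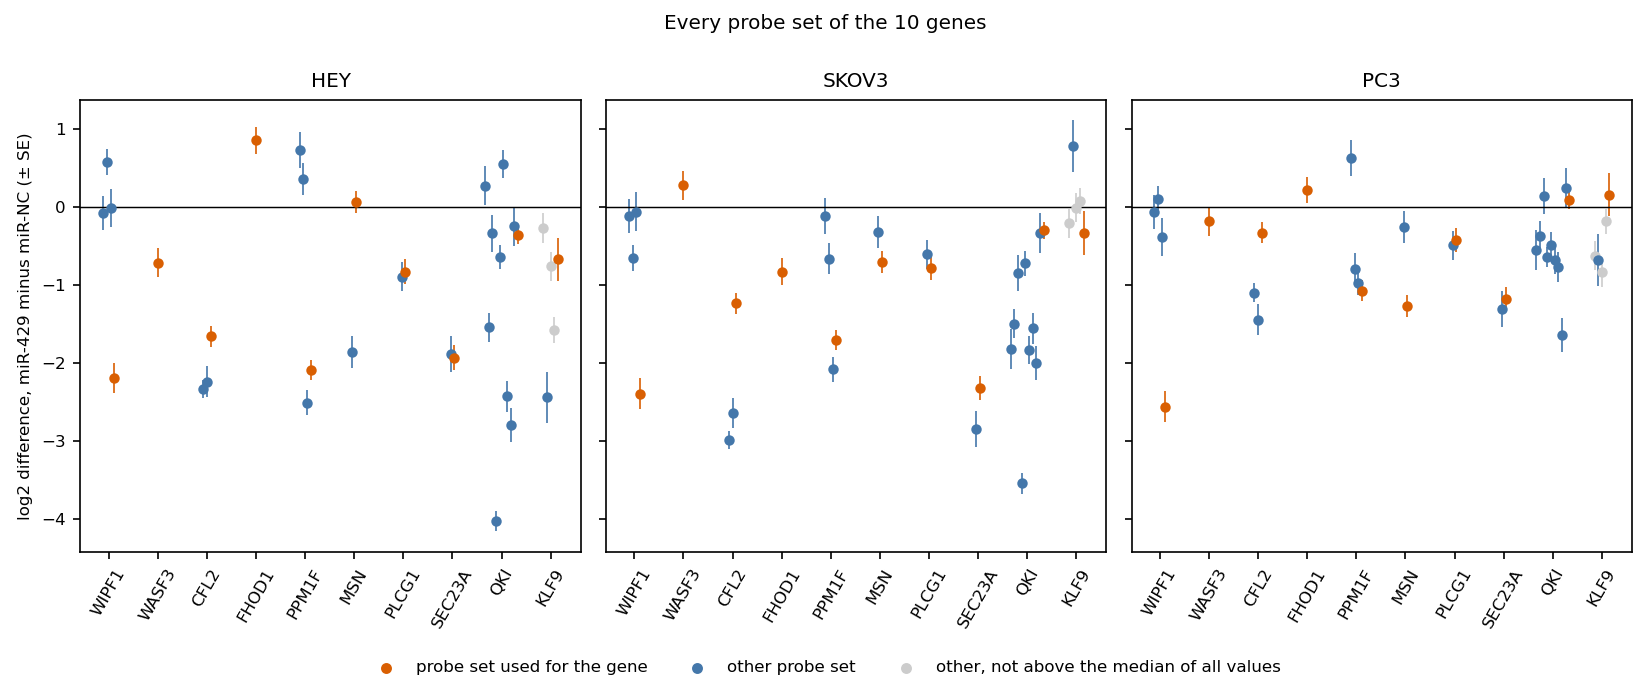
The log2 difference between miR-429 and miR-NC is drawn with its SE for each of the 34 probe sets, in orange for the probe set used for the gene. The QKI probe sets spread from 0.55 to -4.03 in HEY while the used one lies at -0.36, the CFL2 ones lie below the used one in each line, and the dim WIPF1 ones lie between -0.66 and 0.58.

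The lines differed in how these genes answered to miR-429. By limma's moderated F-test of the response against miR-NC, 7 of the 10 differed between lines, as did 66.5% of all genes tested, so this share is near the background. FHOD1, MSN and WASF3 differed between SKOV3 and HEY (by -1.68, -0.77 and 0.99, adjusted p = 3.1e-07, 0.0012 and 0.0019), where 49.1% of all genes differed. Between PC3 and HEY 6 genes differed, beside 56.5% of all genes, among them CFL2 by 1.33 (a smaller fall in PC3, adjusted p = 1.8e-07) and MSN by -1.34 (a larger fall in PC3, 5.7e-07). Between PC3 and SKOV3 6 differed, beside 27.1% of all genes. SEC23A by 1.14 (0.00016), FHOD1 by 1.05 (0.0012), CFL2 by 0.90 (0.00035), PPM1F by 0.63 (0.0072) and QKI by 0.39 (0.049) were less negative, or positive, in PC3, and MSN fell more there (-0.57, 0.029).

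WIPF1, PLCG1 and KLF9 showed no difference between lines that passed the F-test (adjusted p = 0.47, 0.18 and 0.16). For WIPF1 the pairwise differences in response were -0.20, -0.37 and -0.17, each with an SE of 0.28 (adjusted p = 0.58, 0.26 and 0.70).

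The starting levels in miR-NC cells also differed. Between SKOV3 and HEY 9 of the 10 genes differed (78.4% of all genes), between PC3 and HEY 4 (56.6%) and between PC3 and SKOV3 7 (81.2%). WIPF1 was highest in HEY at 9.63, then SKOV3 at 8.76, then PC3 at 8.27, with each step past the test (adjusted p of 0.023 or less). CFL2 and SEC23A were lowest in SKOV3, at 9.05 and 11.54, and HEY and PC3 did not differ beyond their error (0.010 ± 0.13 and 0.14 ± 0.15). MSN ran from 12.01 in SKOV3 to 11.67 in HEY to 10.94 in PC3, and KLF9 was at 5.83 in HEY, 5.81 in SKOV3 and 3.03 in PC3. Levels of different genes come from different probe sets and are not compared. The 5′ GAPDH probe set also differed between the miR-NC groups, at 8.37 in HEY, 13.7 in SKOV3 and 5.04 in PC3. Its part in the differences between lines, in starting level or in response, was not tested and cannot be told apart from that of the line.

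With miR-203a, few of the 10 genes left their miR-NC level in HEY and SKOV3. In HEY CFL2 alone rose (5.82% of all genes rose) and none fell (7.33%). In SKOV3 CFL2 and WASF3 rose, the latter by 1.14 ± 0.19 (7.06% of all genes rose), and none fell (4.88%). In PC3 WIPF1 and SEC23A fell, by 0.83 and 0.36 (25% of all genes fell), and FHOD1, KLF9, CFL2, PPM1F and MSN rose, by 0.41 to 1.71 (31.1% rose), although KLF9 was under the background level in both groups (3.03 and 4.09).

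With miR-205 the lines parted. In SKOV3 WASF3, CFL2, SEC23A and QKI rose above miR-NC, by 1.59, 1.16, 0.52 and 0.39 log2 units (16.8% of all genes rose), and none fell (8.81%). In PC3 FHOD1, KLF9, MSN, PPM1F and CFL2 rose, by 1.55, 0.79, 0.46, 0.39 and 0.32 (28.7% rose), and none fell (19.7%), although KLF9 was again under the background level in both groups (3.03 and 3.82). In HEY 6 fell, namely SEC23A, WASF3, KLF9, WIPF1, CFL2 and QKI, by 1.87, 1.72, 1.23, 1.13, 0.94 and 0.37 (32.2% fell), with the KLF9 mean under the background level, and FHOD1 and PLCG1 rose (33.6% rose). These comparisons share the miR-NC arrays with those of miR-429. The 5′ GAPDH probe set stood 3.92 above miR-NC in HEY with miR-205, 4.95 above it in PC3 with miR-203a, and 0.0099 above it in SKOV3 with miR-205. Its part in these differences was not tested.

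**Figure D5:**
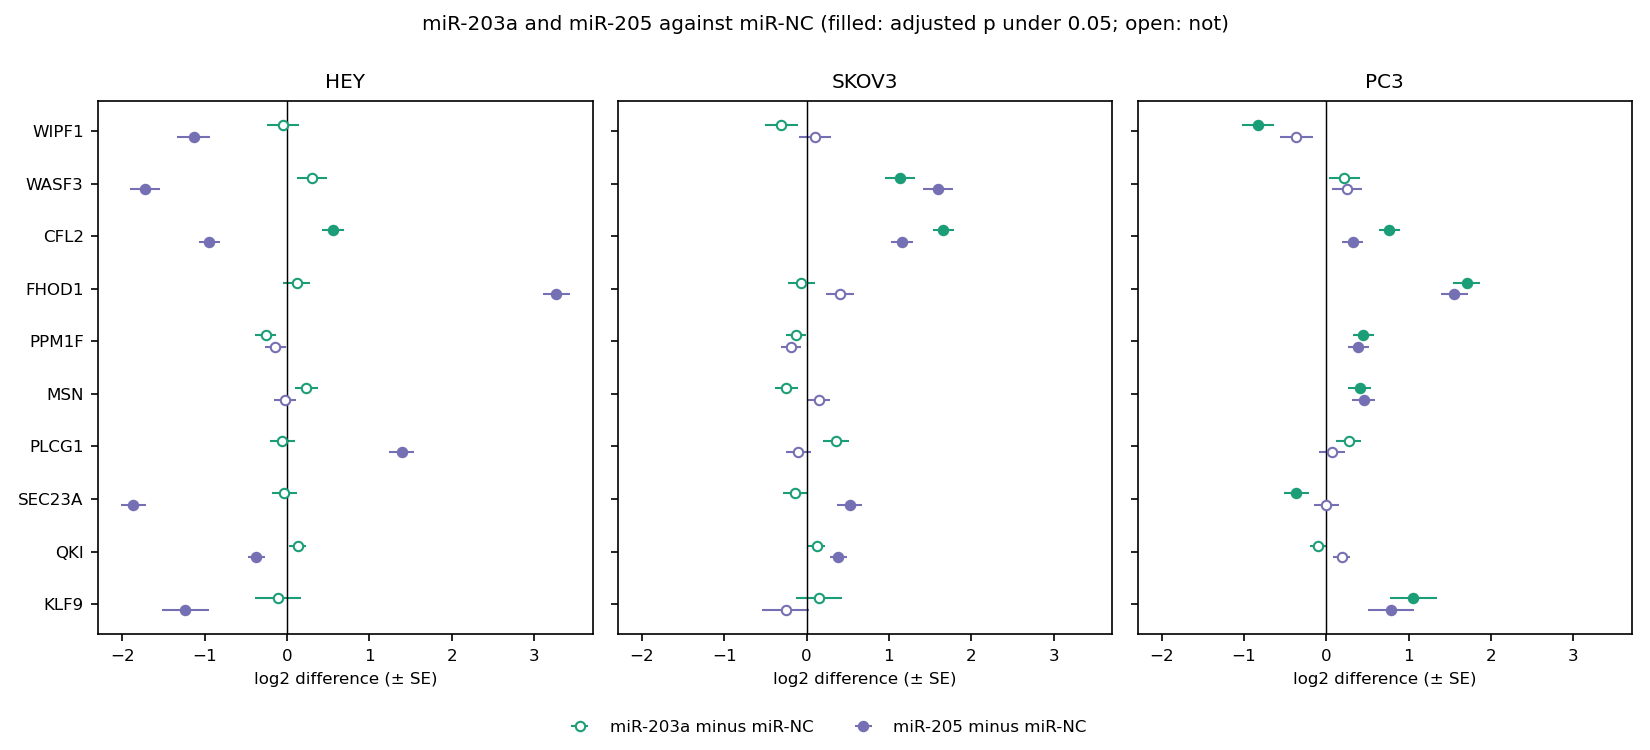
Log2 differences of miR-203a (green) and miR-205 (violet) from miR-NC are drawn with their SE for each gene and line, filled where the adjusted p was under 0.05. CFL2 lies right of 0 with miR-203a in all 3 lines (0.56, 1.66 and 0.77), and in HEY miR-205 has SEC23A at -1.87 and FHOD1 at 3.27.

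On the 9 arrays titled untransfected some of the 10 genes stood far from their miR-NC level under the same title. WIPF1 was at 2.61, 2.49 and 2.54 on the arrays titled SKOV3, where miR-NC was at 8.62 to 8.89, and KLF9 was at 7.60, 7.11 and 7.06 there, where miR-NC was at 5.49 to 6.08. FHOD1 was at 8.58, 8.35 and 8.23 on those titled PC3, above the 5.73 to 6.36 of miR-NC and nearer to miR-203a at 7.66 to 8.10. Since line markers on these arrays go against their titles, the values are given with no test.

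ZEB1 and ZEB2, the best known targets of the family, can be set beside these genes. ZEB1 fell with miR-429 against miR-NC by 2.22 in HEY, 2.15 in SKOV3 and 0.62 in PC3, and ZEB2 by 2.52 in HEY, whereas in SKOV3 ZEB2 was near the floor at 2.73 with miR-NC. The PC3 differences of ZEB1 and ZEB2 were not examined on other scales. Array medians in PC3 were 4.49 to 4.51 with miR-429, beside 4.89 to 4.93 with miR-NC. In PC3 ZEB2 was at 8.31 with miR-NC and 7.97 with miR-429, a difference of -0.34 ± 0.14 (adjusted p = 0.051). With miR-203a it was at 6.90 and with miR-205 at 7.81. ZEB1 on the PC3 arrays was at 10.96 with miR-NC, 10.34 with miR-429, 9.98 with miR-205 and 9.68 with miR-203a. Its PC3 mean was thus higher with miR-429 than with either other microRNA. With miR-205 the HEY mean of ZEB1 was 9.73, beside 11.55 with miR-NC, and its SKOV3 mean 8.35, beside 9.72. These means were lower with miR-429, at 9.33 and 7.57, and with miR-203a they were 11.40 and 9.71. ZEB2 in HEY was at 7.65 with miR-205, beside 7.05 with miR-429.

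Of 49 other published targets of the same seed, ZEB1 and ZEB2 among them, 44 were tested. With miR-429 against miR-NC 23 fell and 5 rose in HEY, 15 fell and 4 rose in SKOV3, and 15 fell and 6 rose in PC3, to be read against the 35.7%, 7.18% and 29.7% of all genes that fell. Their medians were -0.46, -0.15 and -0.18. Against miR-203a 23, 19 and 14 were lower with miR-429 and 5, 6 and 19 higher in HEY, SKOV3 and PC3. Of all genes 34.6%, 7.08% and 43.3% were lower there. Against miR-205 14, 16 and 17 were lower and 15, 5 and 16 higher, where 41.3%, 9.33% and 42.6% of all genes were lower. LOX, which crosslinks collagen, fell below miR-NC in each line, by 2.10 in HEY, 3.18 in SKOV3 and 1.31 in PC3. Its levels with miR-429 in SKOV3 and PC3, 4.46 and 4.85, were under background. With miR-203a LOX was below miR-NC too, at 6.61 in HEY, 5.43 in SKOV3 and 4.22 in PC3, beside 8.11, 7.64 and 6.16. With miR-205 it was at 7.12, 8.09 and 5.91. HIPK3, a kinase, fell by 1.82 in SKOV3, and in PC3 PTPRD, a receptor phosphatase, fell by 2.67 and FN1, fibronectin, by 1.59. PTPRD in PC3 was at 7.87 with miR-NC, 5.91 with miR-203a, 5.61 with miR-205 and 5.20 with miR-429. HIPK3 in SKOV3 was at 11.85 with miR-203a and 11.47 with miR-205, above its 10.81 with miR-NC.

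Of 13 paralogs of the 10 genes tested, 3 fell and 3 rose in HEY, where 35.7% of all genes fell and 21% rose. In SKOV3 0 fell and 2 rose, where 7.18% fell and 14.9% rose, and in PC3 1 fell and 4 rose, where 29.7% fell and 16.3% rose. SEC23B, the close relative of SEC23A, rose by 1.39 ± 0.17 in SKOV3 (adjusted p = 5e-08) and by 0.71 in HEY. RDX, radixin, a relative of moesin, rose by 0.83 in SKOV3 and 0.67 in PC3. In SKOV3 SEC23B was at 9.76 with miR-205 and 8.57 with miR-203a, beside 9.66 with miR-429. RDX was there at 12.16 and 12.39, beside 11.72 with miR-429. WIPF2 rose by 0.99 in HEY and WIPF3 by 0.92 in PC3. KLF13, a relative of KLF9, fell by 2.31 in HEY, FHOD3 fell by 0.81 there, and KLF16 fell by 1.23 in PC3, to 3.70, under background. In HEY WIPF2, KLF13, FHOD3 and SEC23B were at 10.5, 7.59, 9.01 and 10.1 with miR-205, beside 9.98, 7.87, 8.19 and 10.6 with miR-429. With miR-203a they were at 9.57, 9.97, 8.78 and 10.1.

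The partners of these proteins moved in both directions. Of the 11 COPII genes tested, 1 fell and 3 rose in HEY, 0 fell and 4 rose in SKOV3, and 0 fell and 5 rose in PC3, beside the 21%, 14.9% and 16.3% of all genes that rose and the 35.7%, 7.18% and 29.7% that fell, shares that also stand beside the lists that follow. With array medians and tested-gene medians subtracted 9 and 7 of the COPII genes rose in PC3 and 0 fell, where 12.1% and 18.9% of all genes fell. With quantile normalization 4 rose and 0 fell (17.5% of all genes fell). SEC24A, which binds SEC23 and picks cargo, was higher by 2.16 ± 0.12 in SKOV3 and 0.96 in PC3, and SEC13, of the outer coat, was higher by 1.65 in HEY and 0.86 in PC3. SEC24D rose by 1.14 in SKOV3, and SAR1B, the GTPase that starts the coat, rose by 0.59 in HEY and 0.58 in PC3. In HEY SEC13 was at 12.05 with miR-205 and 10.34 with miR-203a, beside 11.64 with miR-429. SAR1B was there at 9.46 and 10.32, beside 10.73 with miR-429. SEC24A in SKOV3 was at 9.22 with miR-205 and 7.92 with miR-203a, beside 8.93 with miR-429. Of 17 WAVE, WASP and ARP2/3 genes, 3 fell and 7 rose in HEY, 2 fell and 3 rose in SKOV3, and 4 fell and 2 rose in PC3. Subunits of ARP2/3 itself went both ways, as ARPC1A did between HEY (1.49) and SKOV3 (-0.60). ARPC5L rose by 1.37 and ARPC1B by 1.26 in HEY, and ARPC4 by 1.40 and ARPC3 by 0.35 in SKOV3. In HEY ARPC1A, ARPC5L and ARPC1B were at 8.99, 11.27 and 9.66 with miR-205, beside 9.87, 11.18 and 9.05 with miR-429. With miR-203a they were at 9.16, 9.86 and 7.92. ARPC4 in SKOV3 was at 10.67 with miR-203a and 10.61 with miR-205, beside 10.63 with miR-429. In PC3 ARPC5 rose by 0.73 while ARPC1B fell by 0.67 and CYFIP2, of the WAVE complex, by 0.87.

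Of 15 cofilin-pathway and ERM genes, 5 fell and 3 rose in HEY, 1 fell and 4 rose in SKOV3, and 0 fell and 2 rose in PC3. SSH1, a phosphatase that activates cofilin, rose by 1.06 in SKOV3 and 0.94 in PC3. In SKOV3 SSH1 was at 8.46 with miR-203a and 8.39 with miR-205, beside 8.42 with miR-429. TESK1, a kinase that switches cofilin off, fell by 0.89 in HEY, SSH2 fell by 0.81 there, and CAP2, which helps recycle actin, fell by 0.53 in HEY and 0.82 in SKOV3.

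Of 15 epithelial genes, 5 rose and 0 fell in SKOV3, where 14.9% of all genes rose, and 10 did not pass the test. CDH1, E-cadherin, went from 4.03 with miR-NC, under the background level, to 8.59, EPCAM rose by 4.41 ± 0.26 from a measured level, and SPINT1 rose by 1.93 from 4.71, also under background. In HEY 6 rose (21% of all genes), with the keratins KRT18 (3.45), KRT7 (2.35) and KRT8 (1.22) the furthest, and 2 fell (35.7%). These keratins were higher still in HEY with miR-205, at 12.932, 12.271 and 11.054, beside 12.207, 11.495 and 9.219 with miR-429. With miR-203a they were at 9.169, 9.725 and 8.46 there. In PC3 3 rose (16.3%) and 5 fell (29.7%). GRHL2 was up there by 2.06 and CLDN3 and OVOL1 down by 1.21 and 1.09, CLDN3 to 4.76, under background. Against miR-203a 2, 0 and 10 of the epithelial genes were lower and 7, 5 and 1 higher in HEY, SKOV3 and PC3. Of all genes 34.6%, 7.08% and 43.3% were lower there. Against miR-205 6, 1 and 11 were lower and 1, 3 and 1 higher, where 41.3%, 9.33% and 42.6% of all genes were lower. Of 10 mesenchymal genes 3 fell and 4 rose in HEY, 1 fell and 0 rose in SKOV3, and 3 fell and 0 rose in PC3. FN1 fell in all 3 lines by 1.59 to 1.69, FAP fell by 2.49 and VIM rose by 1.47 in HEY, and TWIST2 and SNAI2 fell by 1.95 and 1.08 in PC3. In HEY VIM was at 12.96 with miR-205 and 12.11 with miR-203a, beside 13.06 with miR-429. FAP was there at 7.46 and 8.66, beside 6.17 with miR-429.

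Of the 59 differences that the naming rule picked from these lists, none changed direction under the 3 other scalings tried, and the call was lost for ARPC1B in PC3 with array medians subtracted (-0.26, adjusted p = 0.17) and for SAR1B in PC3 with quantile normalization (0.37, adjusted p = 0.061). The counts of the lists were less stable in PC3. With array medians subtracted, where 12.1% of all genes fell in PC3, 8 of the other published targets fell and 19 rose there. On that scale 1 of the WAVE, WASP and ARP2/3 genes fell and 9 rose, so the balance of both lists turned. Of the 15 cofilin-pathway and ERM genes 0 fell and 12 rose. The epithelial list turned as well, with 3 lower and 6 higher, and 3 mesenchymal genes rose beside the 3 that fell. With quantile normalization (17.5% of all genes fell in PC3) 14 of the other published targets fell and 3 rose. On that scale 7 of the WAVE, WASP and ARP2/3 genes fell and 2 rose, so neither list turned. The share of all genes that rose on these scales is not given here.

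Across the 12 transfected groups, after each line's mean was subtracted, WIPF1 and SEC23A followed each other most closely of the 45 pairs of these genes (Pearson r = 0.92), and the median over the pairs was 0.46. WASF3 and FHOD1 were the most opposed (r = -0.42). These are descriptions over 12 group means that share their arrays and array-wide shifts. Outside the 10, the gene most like each was IMMP2L for WIPF1 (r = 0.99), RAP2C for SEC23A (0.99), DHH for FHOD1 (0.99), SYDE1 for PPM1F (0.97), PDZD7 for PLCG1 (0.97) and IDH1 for WASF3 (0.97). For MSN it was HS3ST5 (0.96), for CFL2 SCD (0.96), for QKI CLASP1 (0.94) and for KLF9 CDKAL1 (0.93).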

How the data were processed

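The authors deposited log2 intensities, which the submitters' processing notes attribute to RMA (background correction, normalization between arrays and summary per probe set). Its version and settings are not given in the sources used here. Array medians ran from 4.49 to 4.98. The PC3 arrays with miR-429 stood lowest of all, at 4.51, 4.51 and 4.49, beside 4.93, 4.91 and 4.89 on the PC3 arrays with miR-NC. Unscaled differences of miR-429 in PC3 include this shift. Per the labels' protocols, RNA was amplified with a 3′ kit and labelled with biotin. Arrays have no depth, and their number (3 a group) limits the precision.

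Probe sets were named through the platform annotation (41097 with 1 symbol, 1801 with several and 11777 with none, and those with 1 were used). A probe set had to exceed the median of all values in at least 1 group mean, and the brightest on average stood for its gene. The 45 arrays, grouped by title, were fitted together as 15 group means, using limma 3.58.1 (lmFit, eBayes, 30 residual degrees of freedom, R 4.3.3), two-sided, adjusted by Benjamini-Hochberg over 15599 genes with a threshold of 0.05. SE is limma's. Exact permutation tests used Python 3.11.15 and figures matplotlib 3.10.9. The fit was tested on simulated data for miR-429 against miR-NC in SKOV3, over 15599 genes. In it 100 genes were lowered by 1 log2 unit and 100 by 0.5, with independent normal noise of limma's spread. Of these 89% and 24% were recovered, and 7 of 15399 unchanged genes were called. The data differ, as 1120 genes fell and 2323 rose in that comparison and arrays can shift as a whole. The simulated rates are thus not those of the reported tests.

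The 10 genes and all gene lists were chosen with earlier results of these data known. Genes named beyond the 10, ZEB1 and ZEB2 are, per list and line, up to 3 called genes with the largest change, and per gene the 1 most alike in pattern. The planned search for seed sites was not run. Other settings covered the normalization (quantile, array medians, tested-gene medians), the filter (none, or the 75th percentile), the choice of probe sets (averaged per gene, or without those marked x or s), the fit (each line alone, replicate number as block, no arrays titled untransfected, intensity trend with robust prior), a 2-fold minimum, and leaving out 1 array at a time.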

Additional observations from a re-analysis of the deposited data

Results flagged for a closer look

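For 7 of the 10 genes the response to miR-429 against miR-NC differed between the lines by the moderated F-test over all genes (limma, adjusted over 15599 genes), which 66.5% of all genes did. The adjusted p was 4.5e-07 for CFL2, 8.2e-07 for FHOD1, 1.9e-06 for MSN, 2.5e-05 for PPM1F, 8.3e-05 for SEC23A, 0.0048 for WASF3 and 0.016 for QKI. FHOD1 was the one with a called rise in one line (0.85 in HEY) and a called fall in another (-0.83 in SKOV3).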

How the results depend on the processing

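Of the 90 differences of the 10 genes, 89 kept direction and call with the replicate number as a block, where QKI in SKOV3 against miR-NC (adjusted p = 0.054) made that count of members 7. Same-numbered arrays had r of -0.15 to 0.22 over the lines in their deviations, and differently numbered ones -0.24 to 0.20. No pairing by number was seen, but with 3 arrays a group these correlations cannot exclude it. Fits that left out 1 array kept 510 of 540 and reversed 0. The counts of members lower changed with the scale of the arrays in PC3. Subtracting array medians left 5 lower against miR-205, and subtracting tested-gene medians left 5 against miR-203a and 5 against miR-205. With a 2-fold minimum the counts of members were 4 in HEY and 4 in SKOV3 against miR-NC (14.1% and 0.789% of all genes), 5 in SKOV3 and 5 in PC3 against miR-203a (0.808% and 22.3%), 5 in PC3 against miR-205 (20.5%) and 5 averaged over lines (3.08%), since fewer differences reach that size.

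Reversed differences were, with array medians subtracted, CFL2 in PC3 against miR-NC (0.077) and QKI in PC3 against miR-205 (0.32), and with tested-gene medians subtracted, WASF3 and QKI in PC3 against miR-205 (0.055 and 0.38). With probe sets averaged per gene they were MSN in HEY against miR-NC and miR-205 (-0.90 and -0.40), QKI in HEY against miR-205 (-0.54), and QKI in PC3 against miR-NC and miR-203a (-0.47 and -1.20). Differences between a gene's probe sets account for the last 5 by construction. The others follow by construction from the subtracted medians, which differed between the PC3 groups and shift every gene alike. Why the medians differed was not tested. A fit per line gives no value averaged over lines. KLF9 was not tested under the stricter filter.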
